A study of Bos taurus with 60 samples.

Results

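Liver microRNAs (miRNAs) of Kinsella Composite (KC) steers were compared with those of Angus steers. All 20 KC steers and all 20 Angus steers of the 60 steers in the series were used, whatever their residual feed intake (RFI) group, with 1 small RNA library per steer. RFI is feed eaten beyond what growth and body size predict, so that low-RFI steers are the more efficient ones. The study's methods took the 20 steers of each breed from its highest and lowest RFI values. The labels gave 6 low-RFI and 6 high-RFI steers in each breed and no RFI group for the other 8 of each breed. Steers without a label were therefore also from the ends of the RFI range. Angus is a pure breed, whereas KC is a composite herd that the study's methods trace to Angus, Charolais or hybrid bulls on a hybrid dam line, so KC steers can carry Angus ancestry. The labels named 7 sires for the Angus steers, with families of up to 6 half-sibs, and 11 sires for KC, 1 of them by a placeholder, with a family of 8 half-sibs as the largest. All animals were castrated males that were raised on the same ranch and fed the same finishing diet. They were slaughtered at a set back-fat depth, which KC steers reached at a younger mean age. The libraries were sequenced in pools that the labels do not assign to steers. Breed, age at slaughter and sequencing pool therefore cannot be told apart here.

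Of 1030 mature miRNAs in the files, 403 reached 1 CPM (read counts scaled to a common library total) in at least 10 of the 40 steers and were tested. Only the 1155 pairs of a mature miRNA and a precursor that the files of both breeds list were used, because 52 further pairs are listed for KC alone. The totals ran from 1930859 to 5703119 counts per Angus steer (median 3720336) and from 3631180 to 6751781 per KC steer (median 5538046), so KC libraries were the deeper ones. A count of 3, the limit that a count of 0 allows, was worth 0.526 to 1.554 CPM in Angus and 0.444 to 0.826 CPM in KC, and covers counting error only. Spearman correlations of miRNA levels between an Angus and a KC steer (0.946 to 0.979, median 0.967) spanned about the same range as those within Angus (0.950 to 0.981, median 0.967) and within KC (0.958 to 0.980, median 0.970). The library of Angus steer 7 had the lowest normalization factor, 0.701. Angus 20, 7 and 16 had the highest scores (6.3, 4.65 and 4.47) on the first principal component of log2 CPM, which held 10.1% of the variance. Angus 17 had the highest on the fourth. KC libraries were also at the extremes: KC 14 had the lowest score on the first component (-4.73) and KC 10 the highest on the second (5.9). A fit without Angus 7, 16, 17 and 20, which left out no KC library, gave 38 calls, 33 of them among the 55 described below. Of the tissue's defining markers, miR-192, a miRNA abundant in hepatocytes, alone took a median of 23.2% of the counts of tested miRNAs in Angus and 23.5% in KC. The muscle-specific miR-206 and miR-208a and the nervous tissue miR-124a and miR-124b were at 0 in 39, 38, 33 and 33 of the 40 steers, respectively. miR-124a and miR-124b had the same highest level, 0.3163 CPM, so they may not be separate observations. Other miRNAs of these tissues were tested. The nervous tissue miR-9-5p had 4.4 to 13.1 CPM in Angus and 4.52 to 16.1 CPM in KC. The muscle miRNAs miR-1, miR-133a, miR-133b and miR-499 summed to 20.4 to 54.0 CPM in Angus and 29.2 to 59.97 CPM in KC.

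A miRNA is a short RNA that is cut from a hairpin precursor and loaded into an Argonaute protein. It pairs with messenger RNAs mainly through its seed, bases 2 to 8 from the 5′ end, and lowers the stability or translation of those messengers. MiRNAs with the same seed form a family with largely shared targets, and neighbouring hairpins are often cut from a common primary transcript. Either arm of a hairpin, named 5p or 3p, can give the mature miRNA.

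The mature sequences below, taken from the study's list of miRBase sequences, are those on which the breed comparison turned, with the seed in capitals. The let-7 family, known for holding cells in a differentiated state, is shown first. Of its 9 tested members with the seed GAGGUAG, the 6 below were called lower in KC. let-7i, let-7b and let-7g were not called.

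let-7a-5p: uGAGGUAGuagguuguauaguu
let-7f: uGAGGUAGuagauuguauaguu
let-7d: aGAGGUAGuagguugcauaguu
let-7e: uGAGGUAGgagguuguauagu
let-7c: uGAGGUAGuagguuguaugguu
miR-98: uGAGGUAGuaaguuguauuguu

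The miR-99/100 and miR-125 families are shown next. Their hairpins sit beside let-7 hairpins, and these members were higher in KC.

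miR-100: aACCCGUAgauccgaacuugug
miR-99a-5p: aACCCGUAgauccgaucuugu
miR-99b: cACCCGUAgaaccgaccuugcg
miR-125a: uCCCUGAGacccuuuaaccugug
miR-125b: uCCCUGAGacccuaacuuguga

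The remaining sequences belong to single miRNAs with the smallest p-values or with the patterns described in detail below.

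miR-885: uCCAUUACacuacccugccucu
miR-10172-3p: uCACUGGGcauccucugcuuua
miR-1388-5p: aGGACUGUccaaccugagaau
miR-423-5p: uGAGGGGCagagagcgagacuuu
miR-411a: aUAGUAGAccguauagcguacg
miR-708: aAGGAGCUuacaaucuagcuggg
miR-190a: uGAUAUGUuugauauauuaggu

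Between the breeds, 55 of the 403 miRNAs (13.6%) passed the threshold of 0.05 for the adjusted p-value of edgeR's quasi-likelihood test. Of these, 29 (7.2% of those tested) were higher and 26 (6.45%) were lower in KC. The differences were small, between 0.12 and 1.49 in size on the log2 scale with a median of 0.33, and 6 (1.49% of those tested) were past 1.5-fold. Those 6 were miR-190a and miR-7, which were higher in KC, and miR-10172-3p, miR-370, miR-708 and miR-4449, which were lower. Over all 403 miRNAs the median log2 fold change (KC minus Angus) was 0.00, with 200 miRNAs above and 203 below 0. With upper-quartile normalization in place of TMM, 29 miRNAs were higher and 14 lower. Without Angus 7, 16, 17 and 20, the called miRNAs that missed the threshold were let-7c, miR-24-3p, miR-29d-3p, miR-98, miR-130a, miR-139, miR-140, miR-146a, miR-154c, miR-190a, miR-324, miR-380-3p, miR-381, miR-410, miR-421, miR-455-3p, miR-487b, miR-574, miR-874, miR-2285cy, miR-6529a and miR-10225a, with adjusted p between 0.0611 (miR-455-3p) and 0.218 (miR-154c) and the sign of each as in all 40 steers. In no called miRNA were the breeds fully separated, and 4 miRNAs (let-7f, miR-885, miR-7 and miR-215) had all 20 KC steers on 1 side of the Angus median. For 53 of the 55 the sign of the difference was the same in low-RFI steers, high-RFI steers and steers without an RFI group. The exceptions were miR-190a and miR-146b. These subsets are parts of the 40 steers on which the calls were made, so the calls themselves favoured a shared sign. Among high-RFI steers some log2 fold changes were near 0, such as those of miR-24-3p (0.015), miR-146a (0.023) and miR-125a (0.034).

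**Figure D1:**
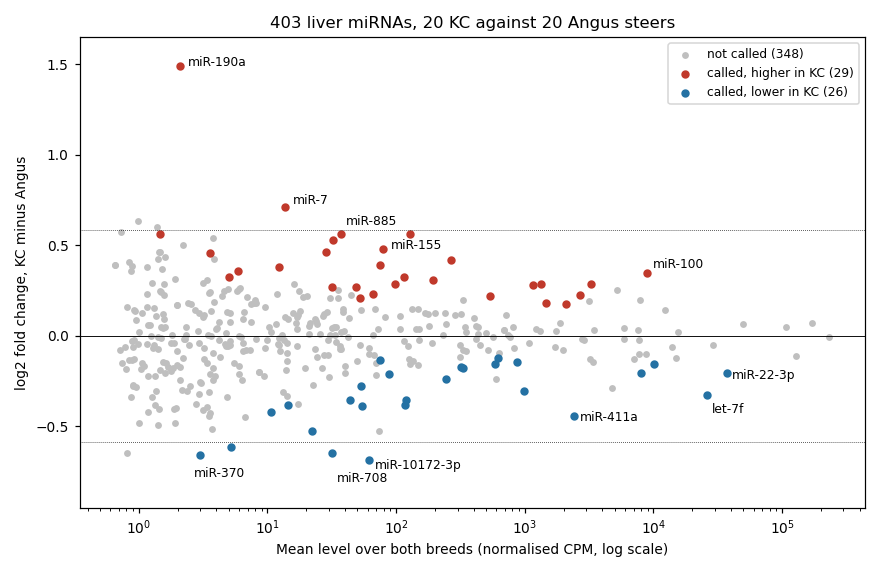
Log2 fold change (KC minus Angus) of 403 liver miRNAs against their mean normalised CPM (log scale). Red and blue points are the 29 higher and 26 lower called miRNAs, grey points were not called, and dotted lines mark 1.5-fold. Called miRNAs with levels above 100 CPM lie inside the dotted lines.

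Steers of a half-sib family are not independent. With the counts of each sire's sons summed, so that 7 Angus and 11 KC sires were compared, 5 of the 403 miRNAs were called: let-7f and miR-423-5p (adjusted p = 0.0101 each), miR-10172-3p and miR-885 (adjusted p = 0.0287 each) and miR-1388-5p (adjusted p = 0.0449). All 5 were among the 55. With limma voom, 39 were called both with sire as a random block and without it, in each case all among the 55, and the estimated correlation within sires was 0.0018.

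The let-7 miRNA let-7f was the eighth most abundant miRNA and had the smallest p-value. In Angus steers it ranged from 24010 to 42160 CPM with a median of 27970, and in KC steers from 18580 to 26590 CPM with a median of 23070. Every KC steer was below the Angus median, and 14 of the 20 were below the lowest Angus steer. The log2 fold change was -0.33 ± 0.05 (SE, adjusted p = 5.42e-05). The medians of all 11 KC sire families, 21970 to 25660 CPM, were below those of all 7 Angus families, 26440 to 34220 CPM. With Angus 7 left out, the log2 fold change was -0.28 and the adjusted p was 5.24e-05.

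let-7f differs from let-7a-5p by the substitution G12A, with positions counted from 1 at the 5′ end of let-7a-5p. The same comparison gives A19G for let-7c and U9G for let-7e, so reads of these members can be exchanged by a single sequencing error, and their split is uncertain to that extent. let-7a-5p itself had 9562 to 13520 CPM in Angus (median 10440) and 8461 to 10580 CPM in KC (median 9820), with 19 of 20 KC steers below the Angus median. Its log2 fold change was -0.16 ± 0.04 (SE, adjusted p = 0.0077), smaller in size than that of let-7f. The ratio of let-7f to let-7a-5p within a steer was 2.29 to 3.12 in Angus (median 2.73) and at most 2.59 in KC (median 2.38), and all 20 KC steers were below the Angus median. This ratio was chosen after both fold changes were seen, so its direction followed from them and it is a description only.

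Of the 10 let-7 and miR-98 miRNAs tested, 6 (60%, beside 6.45% of all 403) were called lower and none was called higher in KC. The median log2 fold change over the 10 was -0.15, and 2 of the 10 had one above 0. let-7e (-0.18 ± 0.05 SE, adjusted p = 0.0127) and let-7d (-0.17 ± 0.05 SE, adjusted p = 0.0128) each had at least 18 of 20 KC steers below the Angus median. The calls of let-7c (log2 fold change -0.15, adjusted p = 0.0473) and miR-98 (-0.16, adjusted p = 0.0463) held in 14 of the 40 fits that left out a steer, and without Angus 7 both had an adjusted p of 0.116. let-7i, with a median of 3471 CPM in Angus and 3110 CPM in KC, had an adjusted p of 0.126. Summed over the family, levels ran from 44140 to 67040 CPM in Angus (median 48640) and from 35940 to 46290 CPM in KC (median 42350), with all 20 KC steers below the Angus median. Family members were called lower in 6, 6, 3 and 1 cases with TMM, RLE, library-total and upper-quartile scaling, and none was called higher. With counts summed per sire, without the KC family of 8 and among steers of overlapping depth, 1 member was called in each case.

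**Figure D2:**
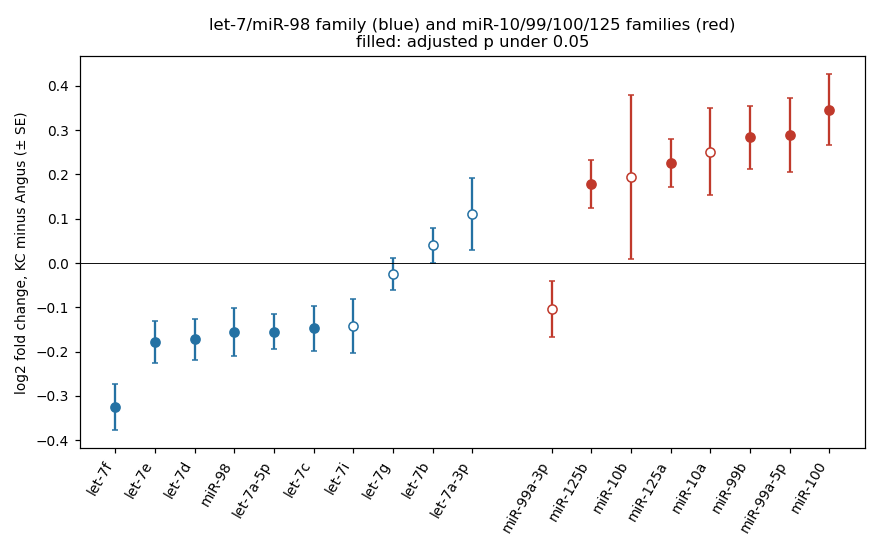
Log2 fold change (KC minus Angus) with its standard error for each tested member of the let-7 and miR-98 family (blue) and of the miR-10, miR-99, miR-100 and miR-125 families (red). Filled points were called: 6 of 10 in the first group, all lower in KC, and 5 of 8 in the second, all higher in KC.

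The families of miR-99, miR-100 and miR-125 went the other way. The miR-99/100 seed is known for targeting the kinase mTOR, and miR-125 is the vertebrate homologue of lin-4, the first miRNA described. Of 8 miRNAs tested on the list that also holds miR-10, 5 (62.5%, beside 7.2% of all 403) were called higher in KC. None was called lower, and the median log2 fold change was 0.24 against 0.00 over all 403. Both families were called in full: miR-100, miR-99a-5p and miR-99b share the seed ACCCGUA, and miR-125a and miR-125b share CCCUGAG. miR-99a-5p differs from miR-100 by A16U, so reads of these members can be exchanged in part. The 3 that were not called were miR-10a (log2 fold change 0.25 ± 0.10 SE, adjusted p = 0.0894), miR-10b and miR-99a-3p. Of the 8, only miR-99a-3p had a log2 fold change below 0 (-0.10). The 5 calls were made with all 4 scalings. None of them was made with counts summed per sire or in a fit of all 60 steers. The same held among the steers of overlapping depth described at the end. In that order, the medians of the 8 were 0.30, 0.25 and 0.14. Without the KC family of 8, miR-99a-5p (adjusted p = 0.124) and miR-125b (adjusted p = 0.104) also missed the threshold. For miR-100, miR-99a-5p, miR-99b, miR-125a and miR-125b the log2 fold changes were 0.11, 0.09, 0.06, 0.03 and 0.05 among high-RFI steers. They were 0.30, 0.29, 0.28, 0.22 and 0.23 among low-RFI steers, and 0.55, 0.43, 0.45, 0.39 and 0.25 among steers without an RFI group.

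miR-100 had 5379 to 9932 CPM in Angus (median 7751) and 5556 to 16990 CPM in KC (median 9624). In 19 of 20 KC steers it was above the Angus median, and in 8 it was above the highest Angus steer. The log2 fold change was 0.35 ± 0.08 (SE, adjusted p = 0.00435), or 1.27-fold. miR-99b rose from a median of 3014 CPM to 3597 CPM (log2 fold change 0.28 ± 0.07 SE, adjusted p = 0.00725), and 11 KC steers were above every Angus steer. miR-99a-5p (0.29 ± 0.08 SE, adjusted p = 0.0192), miR-125a (0.23 ± 0.05 SE, adjusted p = 0.00583) and miR-125b (0.18 ± 0.05 SE, adjusted p = 0.0251) were each above the Angus median in 17 or 18 of the 20 KC steers.

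The hairpins of these families lie in shared clusters with let-7. In the RefSeq annotation of ARS-UCD2.0, used here for gene names and neighbours only since the files use UMD3.1, the hairpins of miR-99b, let-7e and miR-125a lie within 10 kb of each other. The same holds for miR-99a and let-7c, and for miR-100 and let-7a-2. The annotated lncRNA LOC132345457 spans miR-99a, let-7c and miR-125b-2. Within each steer, the ratio of miR-99b to let-7e was 6.14 to 11.3 in Angus (median 8.55) and 6.83 to 18.4 in KC (median 11.6). The ratio of miR-125a to let-7e rose in the same manner, from a median of 6.99 to 9.23, with 15 of 20 KC steers above the highest Angus ratio. The call of let-7c was lost without Angus 7, as given above. For miR-99a-5p to let-7c the medians were 1.32 in Angus and 1.68 in KC, and for miR-100 to let-7a-5p they were 0.763 and 0.993. In each of these 4 ratios 19 of 20 KC steers exceeded the Angus median. For miR-125b to let-7c (medians 2.20 and 2.70) and miR-125b to let-7a-5p (0.183 and 0.237) 17 and 18 did. Each ratio sets a miRNA called higher over a miRNA called lower, and was chosen after the fold changes were seen, so its direction was fixed by that choice and it is a description only. Counts of let-7a-5p and miR-125b are averages over several precursors and do not measure the copy in a given cluster.

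The largest listed cluster was the imprinted DLK1-DIO3 region, whose miRNAs come from maternally expressed noncoding transcripts such as MEG3 and MEG8. Of 61 listed miRNAs in the files, 35 passed the filter on low values. Of these, 8 (22.9%, beside 6.45% of all 403) were called lower and none was called higher in KC. In 32 of the 35 the log2 fold change was below 0, and the median over the 35 was -0.29. The 8 were miR-370, miR-411a, miR-411c-5p, miR-487b, miR-381, miR-380-3p, miR-410 and miR-154c. The summed level of the 35 was 6058 to 14480 CPM in Angus (median 8066) and 4029 to 11490 CPM in KC (median 6350), with 15 of 20 KC steers below the Angus median and 7 below every Angus steer. Along the region, the 7 tested miRNAs upstream of miR-379 had a median log2 fold change of -0.29 with 1 call, and the 28 from miR-379 on had a median of -0.29 with 7 calls.

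**Figure D3:**
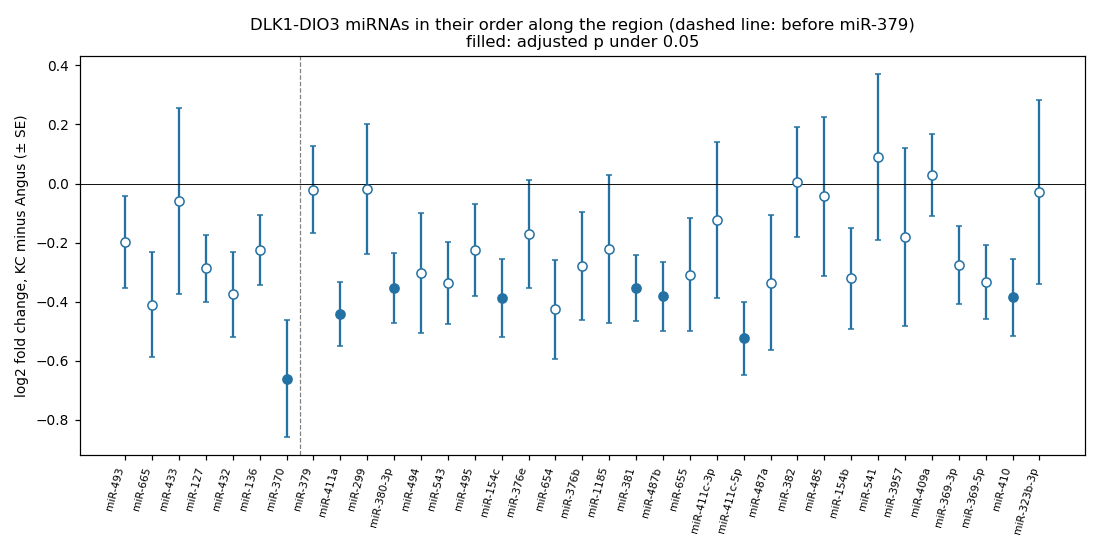
Log2 fold change (KC minus Angus) with its standard error for 35 miRNAs of the DLK1-DIO3 region, placed in their order along the region. Filled points mark the 8 called miRNAs, and 32 of the 35 points lie below 0.

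miR-411a, the second most abundant of the 35, had 1970 to 4767 CPM in Angus (median 2517) and 1244 to 3119 CPM in KC (median 2009). Its log2 fold change was -0.44 ± 0.11 (SE, adjusted p = 0.00635), and 9 KC steers were below the lowest Angus steer. miR-411c-5p fell from a median of 24.8 to 16.5 CPM (-0.52 ± 0.12 SE, adjusted p = 0.00459). miR-370 had 1.74 to 6.01 CPM in Angus and 0.555 to 4.07 CPM in KC, close to the floor of 3 counts, with a log2 fold change of -0.66 ± 0.20 (SE, adjusted p = 0.0237). miR-127, the most abundant member, had medians of 4959 and 3954 CPM and was not called (log2 fold change -0.29 ± 0.11 SE, adjusted p = 0.0947).

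The number of DLK1-DIO3 calls depended on which steers were used. Without Angus 7, 16, 17 and 20 there were 3 calls and a median of -0.23, and without the Angus family of 6 half-sibs there was 1 call and a median of -0.16. With counts summed per sire there was no call, and the median was -0.16. Leaving out single steers gave 4 to 11 calls, the lowest number without Angus 16, Angus 20 or KC 15, and medians between -0.34 and -0.24. No member was called higher in KC in any of the alternatives run.

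Both arms of miR-10172 were lower in KC. The 3p arm had 39.3 to 133.6 CPM in Angus (median 68.7) and 25.2 to 70.4 CPM in KC (median 44.9), and 19 of 20 KC steers were below the Angus median. Its log2 fold change was -0.69 ± 0.12 (SE, adjusted p = 0.000173), or 1.61-fold lower. The 5p arm was less abundant, with medians of 11.2 and 8.86 CPM, and had a log2 fold change of -0.42 ± 0.11 (SE, adjusted p = 0.0088). On ARS-UCD2.0 the hairpin lies within the span of the protein-coding gene BEGAIN, and between it and MEG3 the annotation holds only the lncRNA LOC112443171 and DLK1. miR-10172 was not on the DLK1-DIO3 list, and its position was looked up after its fold change was seen. With counts summed per sire the 3p arm had an adjusted p of 0.0287 and the 5p arm one of 0.113.

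**Figure D4:**
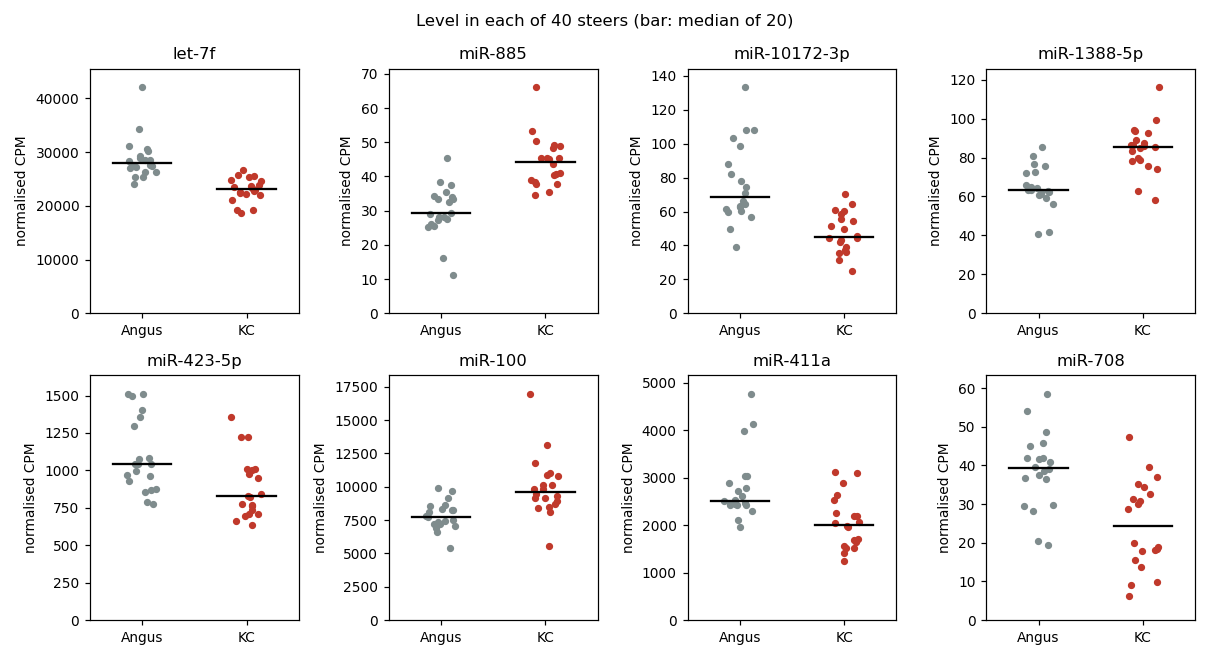
Normalised CPM of 8 miRNAs in each of 20 Angus and 20 KC steers, on axes that start at 0, with a bar at the median. let-7f, miR-10172-3p, miR-423-5p, miR-411a and miR-708 were lower and miR-885, miR-1388-5p and miR-100 were higher in KC, and the points of the breeds overlap in every panel.

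Among 6 hepatocyte miRNAs, miR-885 rose and miR-215 fell in KC (33.3% called, beside 13.6% of all 403). miR-885, known as a liver-enriched miRNA that is also measured in serum, had 11.2 to 45.5 CPM in Angus (median 29.2) and 34.6 to 66.2 CPM in KC (median 44.3). Every KC steer was above the Angus median, and 8 were above the highest Angus steer. The log2 fold change was 0.56 ± 0.10 (SE, adjusted p = 0.000173), or 1.48-fold, and the medians of all 11 KC sire families were above the Angus median. The hairpin lies within the span of the calcium pump gene ATP2B2. Without Angus 7, 16, 17 and 20 the log2 fold change was 0.45 (adjusted p = 0.000221). miR-215, which shares its seed UGACCUA with miR-192, fell from a median of 8723 CPM to 7507 CPM (-0.20 ± 0.06 SE, adjusted p = 0.0155), whereas miR-192 had a log2 fold change of -0.01 (adjusted p = 0.965). miR-148a had a log2 fold change of -0.11 (adjusted p = 0.241). miR-122, the textbook hepatocyte miRNA, which is named here after its values were seen, had medians of 7278 and 8109 CPM and just missed the threshold (log2 fold change 0.20 ± 0.07 SE, adjusted p = 0.0514).

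The most abundant miRNAs were close between the breeds. The 10 with the highest mean level took a median of 80.9% of the counts of tested miRNAs in Angus and 80.6% in KC. Of these 10, let-7f and miR-22-3p were called, beside 13.6% of all 403. miR-22-3p, which has been linked to lipid and glucose metabolism, was lower in KC, with medians of 38320 and 34440 CPM (-0.21 ± 0.06 SE, adjusted p = 0.0183). miR-143, miR-30a-5p, miR-26a, miR-27b, miR-126-5p and miR-101 had log2 fold changes between -0.12 and 0.07. On a list of 18 miRNAs of lipid and glucose metabolism, 1 was called (5.56% against 13.6% of all tested). That was miR-107, a member of the miR-103/107 family in the pantothenate kinase gene PANK1 (-0.12 ± 0.04 SE, adjusted p = 0.0313), in 35 of the 40 fits that left out a steer, with the highest adjusted p, 0.0599, without Angus 19. Its near relative miR-103 had a log2 fold change of -0.06 (adjusted p = 0.376).

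Among leukocyte miRNAs, miR-146a, miR-146b and miR-155 were called higher in KC (33.3% of the 9 tested, beside 7.2% of all 403). None of the 9 was called lower, and 1 had a log2 fold change below 0 (-0.07). Leaving out single steers gave 1 to 4 calls on this list. The first 2 share the seed GAGAACU, are known to restrain inflammatory signalling, and differ by U21C (from miR-146a, counted from 1 at its 5′ end), so their reads can be exchanged in part. miR-146a had medians of 1026 CPM in Angus and 1301 CPM in KC (0.28 ± 0.08 SE, adjusted p = 0.0155), with 17 of 20 KC steers above the Angus median. Without Angus 7, 16, 17 and 20 it had a log2 fold change of 0.23 (adjusted p = 0.0649). miR-146b had medians of 223 and 275 CPM (0.42 ± 0.14 SE, adjusted p = 0.0463), and was called in 17 of the 40 fits that left out a steer, with the highest adjusted p, 0.098, without KC 12. miR-155, which is induced in activated leukocytes, had medians of 63.3 and 71.2 CPM (0.48 ± 0.16 SE, adjusted p = 0.0463). It was called in 19 of the 40 fits. A single steer, KC 14, had 364.4 CPM, and without it the log2 fold change was 0.23 and the adjusted p was 0.104. The other leukocyte miRNAs gave no call, among them miR-142-3p (0.15, adjusted p = 0.106) and miR-142-5p (0.03, adjusted p = 0.739). Summed over the 9, levels were 4068 to 6066 CPM in Angus and 4488 to 7533 CPM in KC, so that the ranges overlapped. In bulk liver, more cells of a type and more RNA per cell cannot be told apart.

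Lists of other liver cell types gave no call, beside 13.6% of all 403. At that share, lists this short can lack a call. The 3 erythroid miRNAs (miR-144, miR-451 and miR-486), the 2 endothelial, the 6 mesenchymal and stellate-cell, the 5 biliary and the 4 tested muscle miRNAs had median log2 fold changes of -0.10, 0.03, 0.09, -0.01 and 0.21. Summed mesenchymal levels were 117700 to 292500 CPM in Angus and 126400 to 259400 CPM in KC, most of it from miR-143. Summed muscle levels were 20.4 to 54.0 CPM and 29.2 to 59.97 CPM, and the defining muscle miRNA miR-1 was at medians of 1.62 and 2.50 CPM (adjusted p = 0.0823). No member of the miR-17-92, miR-30, miR-181, miR-34/449, miR-183/96/182 or X-linked miR-424/450 lists was called. In the miR-29 family, 1 of 5 was called (20%, beside 13.6% of all 403). That was miR-29d-3p at medians of 5.08 and 6.86 CPM (0.36 ± 0.12 SE, adjusted p = 0.0473), which was called in 14 of the 40 fits that left out a steer. The adjusted p was highest, 0.0788, without KC 8. Where these lists move with the results above, their part in those results was not tested.

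Of the ruminant-specific miR-2284 and miR-2285 families, 61 of 148 miRNAs in the files passed the filter and 4 were called, all higher in KC. This share, 6.56%, was close to the 7.2% called higher among all 403. miR-2285k rose from a median of 103 to 123 CPM (0.32 ± 0.07 SE, adjusted p = 0.0035), and in 14 of 20 KC steers it was above the highest Angus steer. miR-2285cj (0.46 ± 0.10 SE, adjusted p = 0.00201) and miR-2285bn (0.27 ± 0.07 SE, adjusted p = 0.00725) also rose, as did miR-2285cy (adjusted p = 0.0487), whose call held in 11 of the 40 fits that left out a steer and was farthest from the threshold without KC 18 (adjusted p = 0.0958). These sequences are repetitive: miR-2285k has 5 and miR-2285bn 6 partners that differ by at most 1 base over at least 18 aligned bases, so the counts of single members are uncertain.

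Several single miRNAs showed differences of a similar size. miR-1388-5p had 40.5 to 85.4 CPM in Angus (median 63.4) and 58.1 to 116.4 CPM in KC (median 85.6), and 10 KC steers were above the highest Angus steer (0.39 ± 0.08 SE, adjusted p = 0.000559). miR-152, which shares the seed CAGUGCA with miR-148a and lies in COPZ2, rose from a median of 164 to 214 CPM (0.31 ± 0.07 SE, adjusted p = 0.00215). miR-708, which lies in TENM4, had 19.3 to 58.6 CPM in Angus (median 39.4) and 6.27 to 47.2 CPM in KC (median 24.3), with 9 KC steers below every Angus steer (-0.65 ± 0.17 SE, adjusted p = 0.0128). miR-7, which has a copy in HNRNPK, had medians of 9.12 and 13.8 CPM, and all 20 KC steers were above the Angus median (0.71 ± 0.17 SE, adjusted p = 0.00635). Its size depended on KC 6, at 65.2 CPM, without which the log2 fold change was 0.48 and the adjusted p was 0.00367. miR-4449, in the lncRNA DANCR, had medians of 5.52 and 3.56 CPM (-0.62 ± 0.19 SE, adjusted p = 0.0301), and its call was lost without Angus 11, 14, 19 or 20 (adjusted p = 0.051, 0.0582, 0.0706 and 0.0523).

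The remaining called miRNAs were spread over many loci. Lower in KC were miR-128 (-0.27, adjusted p = 0.0155), miR-130a (-0.24, adjusted p = 0.0191), miR-6529a (-0.21, adjusted p = 0.0487) and miR-421 (-0.13, adjusted p = 0.0463). Higher were miR-374a (0.28, adjusted p = 0.0183), miR-574 (0.38, adjusted p = 0.0237), miR-139 (0.23, adjusted p = 0.0237), miR-1271 (0.27, adjusted p = 0.0271), miR-362-5p (0.46, adjusted p = 0.0305), miR-324 (0.56, adjusted p = 0.04), miR-24-3p (0.22, adjusted p = 0.0403), miR-874 (0.21, adjusted p = 0.0403), miR-10225a (0.56, adjusted p = 0.0463) and miR-140 (0.18, adjusted p = 0.0473). miR-140, known from cartilage, was the most abundant of these, with medians of 1313 CPM in Angus and 1542 CPM in KC, and 18 of 20 KC steers were above the Angus median. miR-324 and miR-362-5p were among the least abundant, at medians of 1.20 and 1.59 CPM and of 2.98 and 4.57 CPM, so they rest on few reads. Of these 14, miR-128, miR-130a, miR-374a, miR-574 and miR-139 were called in all 40 fits that left out a steer, and miR-1271 and miR-362-5p in 39. The calls of miR-874, miR-24-3p, miR-324, miR-10225a, miR-421, miR-140 and miR-6529a held in 32, 30, 29, 18, 15, 15 and 14 of the 40. For the last 4 the highest adjusted p was 0.114 without KC 5, 0.0767 without Angus 19, 0.0818 without KC 4 and 0.125 without Angus 7. In each of these 14 miRNAs at least 14 of the 20 KC steers lay on the side of the call.

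miR-190a had the largest fold change, and it came from 5 KC steers. In Angus it ranged from 0 to 2.54 CPM (median 1.04) and in KC from 0.339 to 11.2 CPM (median 1.247). KC steers 4, 5, 8, 10 and 11 had 7.52, 10.2, 11.2, 10.4 and 9.44 CPM, from 50, 43, 63, 59 and 59 reads, and every other KC steer had less than 1.5 CPM. All 5 belonged to the largest KC sire family, whose other 3 steers had 0.598, 1.28 and 1.49 CPM. The 12 KC steers of other sires had 0.339 to 1.41 CPM. Over all 40 steers the log2 fold change was 1.49 ± 0.46 (SE, adjusted p = 0.0288). Without that family it was -0.36 (adjusted p = 0.613), and among low-RFI steers it was -0.74. The 5 steers were 3 high-RFI steers and 2 without an RFI group. Without KC 5, KC 8 or KC 10 alone, the adjusted p was 0.0503, 0.057 and 0.0555. miR-190a lies within the span of TLN2, the gene of the cytoskeletal protein talin 2.

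**Figure D5:**
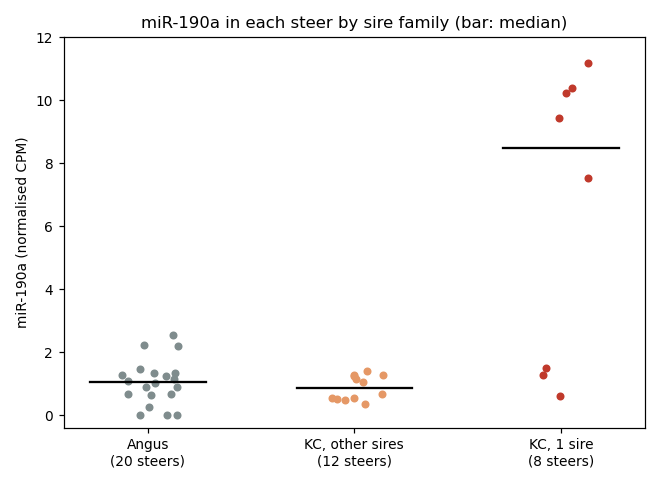
Normalised CPM of miR-190a in 20 Angus steers, 12 KC steers of 10 sires and 8 KC steers of 1 sire, with a bar at each median. The 5 highest points, between 7.52 and 11.2 CPM, all lie in the family of 8, and all other points are below 2.6 CPM.

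The balance between the arms of a hairpin is a within-steer measure that does not depend on library scaling. Arm counts were the averages over the precursors of each mature miRNA, so a miRNA with several precursors does not measure a single hairpin. Of 29 hairpins with both arms in the table, 6 (20.7%) had a ratio of 5p to 3p counts that differed between breeds (limma on the log2 ratio, adjusted over the 29 hairpins). For miR-423 the median ratio was 4.68 in Angus and 3.69 in KC (difference in log2 ratio -0.33 ± 0.06 SE, adjusted p = 0.000217), and 18 of 20 KC steers were below the Angus median. This followed miR-423-5p, which was lower in KC (log2 fold change -0.31 ± 0.10 SE, adjusted p = 0.0301), while miR-423-3p had a log2 fold change of 0.01 (adjusted p = 0.974). The call of miR-423-5p by itself was lost without Angus 19 (adjusted p = 0.0659) or KC 6 (adjusted p = 0.0577). For miR-455, in the collagen gene COL27A1, the median ratio went from 2.49 to 1.99, and all 20 KC steers were below the Angus median (-0.37 ± 0.09 SE, adjusted p = 0.00252). Here miR-455-3p had a log2 fold change of 0.53 ± 0.19 (SE, adjusted p = 0.0487). It was called in 10 of the 40 fits that left out a steer, with the highest adjusted p, 0.115, without KC 9, and without the KC family of 8 it was 0.25 (adjusted p = 0.559), while miR-455-5p had a log2 fold change of 0.15.

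The ratio of 5p to 3p was higher in KC for miR-99a (median 39.9 in Angus and 47.3 in KC, adjusted p = 0.0133), miR-10172 (0.161 and 0.1996, adjusted p = 0.0149) and miR-1388 (6.67 and 9.15, adjusted p = 0.0149). It was lower for let-7a-1 (412.8 and 328.2, adjusted p = 0.0261), where let-7a-3p had a log2 fold change of 0.11 (adjusted p = 0.427) beside the fall of let-7a-5p. The let-7a-5p count is an average over several precursors, so this ratio does not measure the let-7a-1 hairpin alone. For miR-10172 both arms were lower in KC, and the 3p arm by more. For miR-99a the 5p arm was called higher, whereas the 3p arm had a log2 fold change of -0.10 and was not called. Adding 1 count to each arm in place of 0.5, or fitting sire as a random block, gave 6 calls each, and 7 of 15 hairpins were called when both arms had to reach 10 counts in every steer.

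No miRNA passed the test for a breed difference that itself differed between RFI groups. In the 24 steers with an RFI label, edgeR's quasi-likelihood interaction test gave 0 calls among 403 miRNAs, with 10 at an unadjusted p-value under 0.05, and the likelihood-ratio test gave 0 calls with 15. With 6 steers in each of 4 groups, the smallest unadjusted p-values were those of miR-146b, miR-1468 and miR-190a (interaction on the log2 scale 0.80 ± 0.29, -0.47 ± 0.17 and -2.67 ± 0.98 SE), and each had an adjusted p of 0.996. Of these, miR-1468 is named after its values were seen.

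Charolais steers, the third breed of the series, gave a reference for these levels when all 60 steers were scaled together. The Charolais median lay between those of Angus and KC for 31 of the 55 called miRNAs, beyond the Angus median for 19 and beyond the KC median for 5. For let-7f the medians were 27650 CPM in Angus, 25520 in Charolais and 22910 in KC, and for miR-885 they were 29.3, 36.9 and 43.9 CPM. For miR-100 the Charolais median, 6609 CPM, was below both Angus (7646 CPM) and KC (9551 CPM), and for miR-10172-3p it was close to Angus, at 65.8 against 67.3 and 44.7 CPM. The 55 were called because Angus and KC differed, and that choice by itself favours a Charolais median between them. The share among all tested miRNAs is not given here, so the 31 do not show that Charolais levels are intermediate. These Charolais values are descriptions, and no test was made on them.

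The 55 called miRNAs held 46 distinct seeds, and the median GC content of the mature sequence was 47.6% in those higher and 43.2% in those lower in KC, beside 45.4% over the 400 tested miRNAs with a sequence. Across these 400 miRNAs, which are not independent, the Spearman correlation of GC content with the log2 fold change was 0.062. Of the 403 tested miRNAs, 394 could be placed on ARS-UCD2.0, and 283 of them lay within the span of another gene, as did 35 of the 53 placed called miRNAs.

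KC libraries were deeper and the sires were few. With every library thinned to the same total, 38 miRNAs were called, 37 of them among the 55, and the log2 fold changes of let-7f, miR-885 and miR-100 were -0.33, 0.56 and 0.34. Among 11 Angus and 14 KC steers whose totals lie in the range both breeds span, with median totals of 4107432 and 5041389 counts, 8 miRNAs were called, 7 of them among the 55. let-7f (log2 fold change -0.37, adjusted p = 0.000618), miR-885 (0.67, adjusted p = 0.00126), miR-10172-3p (-0.61, adjusted p = 0.0365) and miR-1388-5p (0.35, adjusted p = 0.039) were among these 7, whereas miR-100 had a log2 fold change of 0.14 (adjusted p = 0.282).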

How the data were processed

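Small RNA libraries of liver were made with the TruSeq small RNA kit and sequenced in pools that the labels do not assign to steers. The authors trimmed reads with cutadapt 1.16, kept reads by length, removed other small RNAs, aligned with Bowtie 1.1.1 to UMD3.1, and deposited the raw read counts that miRDeep2 gave to every combination of mature miRNA and precursor (versions from the submitters' processing notes). Groups are the breeds of the labels. Nothing says how far steers of a breed share a sequencing pool, and p-values measure the spread between steers.

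Counts were averaged over the precursors listed for both breeds and rounded. Those reaching 1 CPM in 10 or more of the 40 steers were tested by quasi-likelihood in edgeR 4.0.16, with TMM factors (R 4.3.3). A call is a Benjamini-Hochberg adjusted p-value under 0.05, and 1.5-fold a further threshold. Log2 fold changes are KC minus Angus, with an SE from the F statistic. Normalised CPM uses TMM factors. Arm ratios used 0.5 added counts and limma 3.58.1. DESeq2 1.42.0 served as an alternative. Other steps used Python 3.11.15 with pandas 2.3.3 and matplotlib 3.10.9. Gene names and neighbours came from the RefSeq table of ARS-UCD2.0. The fits were tested on simulated data. The totals per steer, 1930859 to 6751781 counts, put 3 counts at 0.444 to 1.554 CPM.

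The members and lists were chosen with earlier results of these data known. Named are the 15 called miRNAs with the smallest p-values in each direction, all called past 1.5-fold, the called and the 3 most abundant members of each list, the 10 most abundant miRNAs, their other arms, and hairpins with a called arm ratio. The remaining called miRNAs are listed too. miR-122, miR-1468, miR-10b, the cluster ratios, the ratio of let-7f to let-7a-5p and the position of miR-10172 were chosen after values were seen. Alternatives varied the test, scaling, low-count filter, precursors, depth, RFI subsets, sires, the replicate block and leaving out each steer. Upper-quartile factors, the omission of Angus 7, 16, 17 and 20, and the steers of overlapping depth were added after seeing the data.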

Additional observations from a re-analysis of the deposited data

Results flagged for a closer look

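Counts in data outside the comparison were found in the pairs of a mature miRNA and precursor listed only for KC. Of these 52 pairs, 34 had more than 3 counts, the limit that a count of 0 allows, in all 20 KC steers, and they involve 17 mature miRNAs. The highest were pairs of miR-199c with miR-199 precursors, at a mean of up to 7150 counts per KC steer against 153.4 for the miR-199c pair listed for both breeds. The mean of 7150 is also that of the shared pair of miR-199a-3p. In 7 of the 52 pairs the counts equalled those of the shared pair of the same miRNA in all 20 steers. None of the 55 called miRNAs has such a pair, whereas 15 of the 403 tested ones do, and with these pairs included 74 miRNAs were called, all 55 among them. Since the Angus files do not list the pairs, the main comparison leaves them out. In the fit that includes them, averages of the affected miRNAs hold these pairs for KC but not for Angus. That fit therefore does not compare like with like for those miRNAs. Groups of 20 steers were not screened for single outlying values, and no interaction of breed with RFI group was called.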

How the results depend on the processing

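The 55 calls became 32 with library totals only, 31 with all 60 steers in a fit, 34 and 36 without the Angus families of 6 and 5, 18 without the KC family of 8, 11 among steers without an RFI group, 8 among steers of overlapping depth, 7 among the 24 steers with an RFI group, and 5 with counts summed per sire. Among low-RFI and among high-RFI steers edgeR gave 0 calls, with 49 and 31 miRNAs at an unadjusted p-value under 0.05; there, 6 steers per breed were compared. The other alternatives gave 37 to 74 calls, the highest with the pairs listed only for KC. Leaving out each steer gave 37 to 60, the lowest without Angus 11 or KC 15, and 31 of the 55 were called in all 40 of these fits. The 6 calls past 1.5-fold became 3 with at least 10 counts in every steer, 19 with the pairs listed only for KC, 2 in the 24 steers, 0 in either RFI group, 1 with counts summed per sire, and 5 to 8 when each steer was left out. With the pairs listed only for KC, averages of the affected miRNAs hold more precursors in KC than in Angus. The sign reversed for miR-190a among low-RFI steers (-0.74) and without the KC family of 8 (-0.36), and for miR-146b among high-RFI steers (-0.048). With steer number as a replicate block, 38 miRNAs were called, 36 of them among the 55, and 4 were past 1.5-fold; the numbers only name steers, since deviations of same-numbered steers had correlations of -0.28 to 0.18 with 6 of 20 above 0.1. The interaction of breed and RFI group gave 0 calls in each alternative and the arm ratios gave 6 or 7. Several of these constructions used fewer steers or sires, and the cause of the changes was not tested for any of them. At these totals, miRNAs near 1 CPM rest on a few reads per steer.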
